A study of Rattus norvegicus with 15 samples.

Results

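The 154 genes described here had counts in cultures of rat cortical astrocytes without any treatment with mitochondria. They were higher in every sample given mitochondria than in the injured cells given none. Their control means went down to 0.108 CPM, and a count does not show which cells of a culture held the RNA. Levels were expressed as CPM, the count of a gene divided by the total count of its sample and multiplied by 1000000. A gene was chosen when it had at least 1 count in each control and each H2O2 sample, a mean of at least 1 CPM over the 6 samples given mitochondria (the high samples), a lowest high value above the highest of the 6 H2O2 and MitoCoat-mRNA samples (the low samples), and a log2 ratio of at least 0.8. The log2 ratio is the log2 of the mean of the high samples over the mean of the low samples, after 0.5 CPM was added to both. Of 32552 genes listed, 16452 had the required counts and 13275 of these reached 1 CPM. Among these 13275 genes, 640 (4.82%) were higher without overlap, and 154 (1.16%) also reached the ratio. Because these values chose the genes, the difference between high and low samples is given below as a description, and no test of it is given on the 154 genes.

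Astrocytes are glial cells that supply neurons with metabolites, buffer oxidative stress and respond to injury with wide changes in gene expression. H2O2 is a diffusible oxidant, commonly used in culture to mimic oxidative injury. Mitochondria carry their own DNA and RNA and traces of their bacterial ancestry, and mitochondrial material outside its usual compartment is known to be sensed by receptors of innate immunity. The deposited files name genes by Ensembl identifier alone and pair none with a symbol. None of the 32552 identifiers was found in the reference table at hand, so the functions of the genes, their promoters and lists of marker genes were not analysed here. Genes are therefore described by level, by sample and by position in the Rnor6.0 assembly, and identifiers are given for only 2 of them.

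The study asked how rat cortical astrocytes responded, after H2O2 injury, to mitochondria isolated from rat placenta and to the RNA that travels with them. The 5 groups had 3 RNA samples each. Control cells received vehicle for 30 min, and the other cells received 100 µM H2O2 for the same time. After 24 h, injured cells were left without mitochondria (H2O2) or received unmodified mitochondria, MitoCoat or MitoCoat-mRNA, and RNA was collected 6 h later. MitoCoat stands for the same mitochondria coated with the cationic lipid DOTAP and the fusogenic lipid DOPE, and MitoCoat-mRNA for RNA extracted from such mitochondria and enclosed in these lipids. The labels speak of RNA from mitochondria-enriched fractions, whereas the paper describes RNA of the cells, which was assumed here. No group received mitochondria without H2O2, so a response to mitochondria cannot be told apart here from one that requires injury. The mitochondria came from rat placenta and carried RNA of their own. In the high samples, reads of that RNA and reads of the astrocyte RNA cannot be told apart here. Total counts lay between 35315654 and 46778663 per sample. The share of counts on mitochondrial genes lay between 2.81% and 4.61% in the 15 samples, and none of the 35 genes of the mitochondrial chromosome was among the 154. In bulk samples a change in the number of cells of one kind and a change in RNA per cell cannot be told apart.

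The summed level of the 154 genes was 2395, 2133 and 2005 CPM in the control samples, 2193, 2121 and 2087 CPM after H2O2, and 2210, 1999 and 2150 CPM with MitoCoat-mRNA. It was 5820, 5922 and 7091 CPM with unmodified mitochondria and 5767, 6148 and 6232 CPM with MitoCoat. The 6 samples with mitochondria lay above the other 9, of which the choice had required the 6 low samples to be lower. Without the gene of highest level (ENSRNOG00000014117, described below), the sum was 1748 to 2152 CPM in control, 1608 to 1777 CPM after H2O2 and 1591 to 1734 CPM with MitoCoat-mRNA, so that control lay mostly above the low samples. In the single genes the ratio of the mean of the high samples to the mean of the low samples had a median of 2.85 and reached 36.4. The log2 ratio had a median of 1.29, against 0.04 over the 13275 genes. It was under 1 in 38 genes, from 1 to under 2 in 77, from 2 to under 3 in 29 and at least 3 in 10. The lowest values that still passed were 0.81, 0.81 and 0.80, and the highest that did not were 0.79, 0.79 and 0.78.

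**Figure D1:**
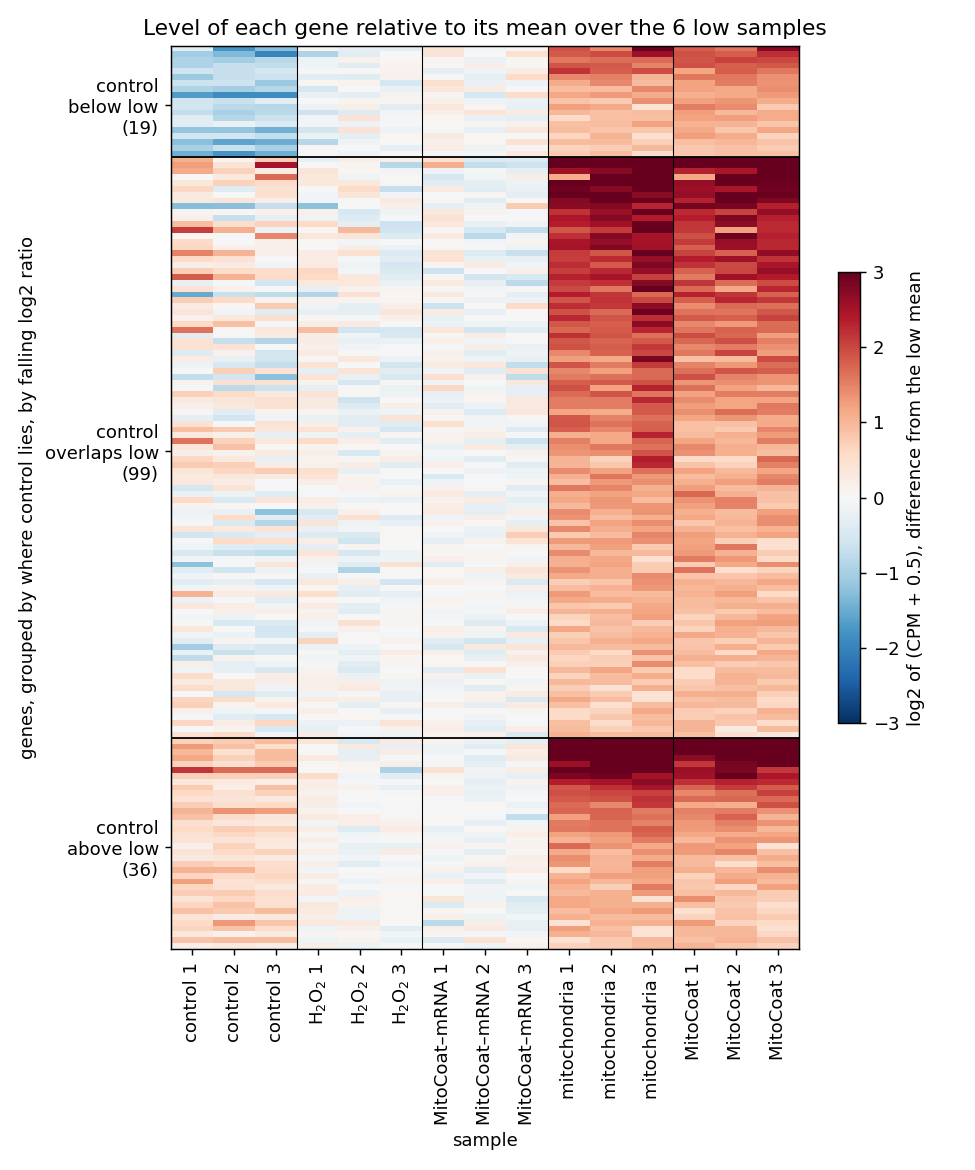
Each row is 1 of the 154 genes and each column 1 of the 15 samples, coloured by the log2 of CPM + 0.5 relative to the mean over the 6 low samples. Rows are grouped by control lying below (19 genes), overlapping (99) or above (36) the low samples, and within each group the colours of the 6 samples on the right, which received mitochondria, are the darkest red in the genes with the largest log2 ratio.

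The genes were of modest abundance in the low samples, which had been chosen to be low. Their mean there had a median of 4.0 CPM, against 24.3 CPM over the 13275 genes, and lay under 1 CPM in 32 genes and at or above 10 CPM in 44. In the high samples the median was 13.3 CPM, with a range from 1.00 to 1632 CPM. The 10 genes with the highest CPM in the high samples held 47.7% of the summed level of the 154 genes there. The total length of exons had a median of 2328 bases, close to the 2403 bases of the 13275 genes, and 8 genes (5.19%, against 8.80%) shared exon bases with another listed gene, so that reads of those 8 could not be assigned with certainty. A count under 10 in at least 1 control or H2O2 sample was found for 21 genes, and their values there were the least precise.

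ENSRNOG00000033220, on chromosome 12 from 41227825 to 41307352, had the largest log2 ratio, 4.70. Its level was 2.24, 2.37 and 2.80 CPM in control, 1.70, 0.735 and 1.5 CPM after H2O2, and 1.33, 1.01 and 0.904 CPM with MitoCoat-mRNA. It was 43.7, 48.9 and 41.3 CPM with unmodified mitochondria and 32.9, 55.6 and 39.2 CPM with MitoCoat. The 3 control samples lay above all 6 low samples and far below all 6 high samples, whose mean of 43.6 CPM was 17.6-fold the control mean of 2.47 ± 0.294 CPM (SD, n = 3). The level after H2O2 differed from control by a log2 fold change of -0.91, which did not pass the test (edgeR quasi-likelihood adjusted p = 0.15).

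ENSRNOG00000014117, on chromosome 19 from 14508616 to 14515456, had the highest level of the 154 genes, both in CPM and per kilobase of exon, where the high samples averaged 1042 CPM. Its level was 243, 224 and 257 CPM in control, 416, 503 and 480 CPM after H2O2, and 475, 408 and 480 CPM with MitoCoat-mRNA. It was 1374, 1476 and 1500 CPM with unmodified mitochondria and 1694, 1900 and 1848 CPM with MitoCoat. Here the order differed from the gene on chromosome 12, since control lay below all other samples and the level stepped up with H2O2 and again with mitochondria. The step from control to H2O2 had a log2 fold change of 0.97 ± 0.11 (SE) and an adjusted p of 0.0026 (edgeR quasi-likelihood), and it passed in each of the alternatives tried.

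**Figure D2:**
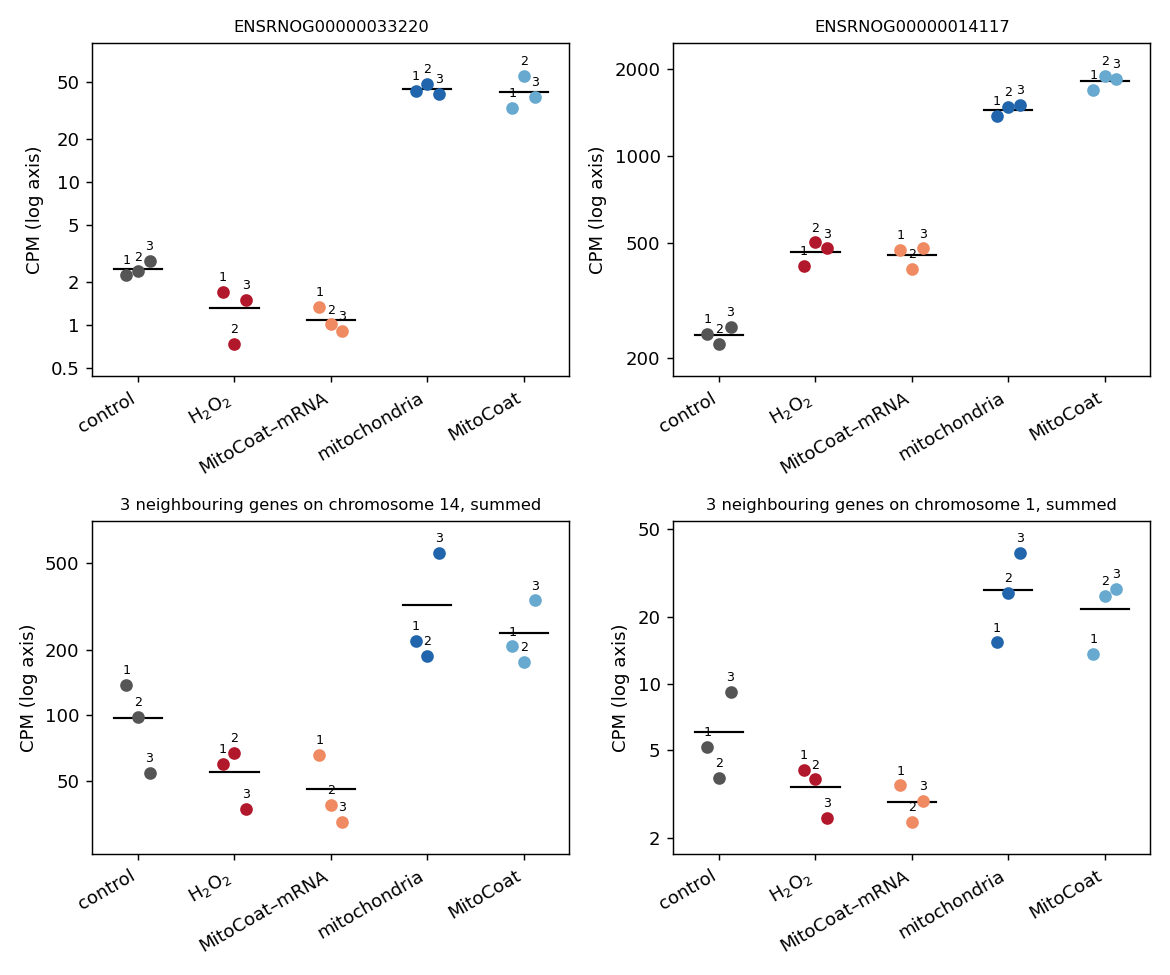
CPM on log axes in each of the 15 samples, numbered by replicate, for the gene with the largest log2 ratio, the gene with the highest level, and the summed level of 3 neighbouring genes on chromosome 14 and on chromosome 1; horizontal lines are group means. Control lies between the low and high samples for ENSRNOG00000033220 and below all others for ENSRNOG00000014117, and replicate 3 of unmodified mitochondria is the highest sample for both regions.

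The 154 genes differed in the position of control, of which the choice of genes had asked only 1 count per sample. All 3 control samples lay below all 6 low samples in 19 genes (12.3%), against 10.4% of the 13275 genes. They overlapped the low samples in 99 genes (64.3%), against 71.9% of the 13275 genes. They lay above all 6 low samples in 36 genes (23.4%), against 17.7% of the 13275 genes. These 3 shares were near those of the 13275 genes. With 1 control sample left out, the counts were 21 to 29 below, 77 to 87 overlapping and 43 to 56 above. The shares over the 13275 genes were not computed for that setting. Within the 36 genes, control lay wholly between the low and the high samples in 23 (14.9% of the 154, against 0.226% of the 13275) and overlapped the high samples in 13 (8.44%, against 3.19%), and in none did it lie above all high samples (0%, against 14.3%). Nothing is read from this second division, which depends on the high samples that the choice had required to be high. The low samples had been required to be low, which moves control upwards relative to them, and the median log2 of control over low, with 0.5 CPM added, was 0.27 in the 154 genes and 0.01 over all 13275.

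In 125 of the 154 genes all 6 high samples lay above all 3 control samples, and 18.5% of the 13275 genes did so. Nothing is read from this count, since the high samples had been chosen to be high. The mean of the high samples exceeded the control mean in all but 2 genes, and the log2 of high over control had a median of 1.28, against 0.05 over the 13275 genes. The ranking by log2 ratio and the position of control share the low samples, so that a large ratio favours control above low, and the counts by ratio are a description. In 15 of the 15 genes with the largest log2 ratio (2.71 to 4.70) the control mean exceeded the low mean. Control lay between low and high in 6 of them, above low but overlapping high in 1, and overlapped low in 8. In a gene counted among the 8, on chromosome 1 from 252944103 to 252946170, the highest control sample also exceeded the lowest high sample. Among the 39 genes with a log2 ratio of at least 2 the control mean exceeded the low mean in 33, and among the 38 genes under 1 in 19. The 10 genes of highest CPM were divided, with the control mean above the low mean in 5.

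**Figure D3:**
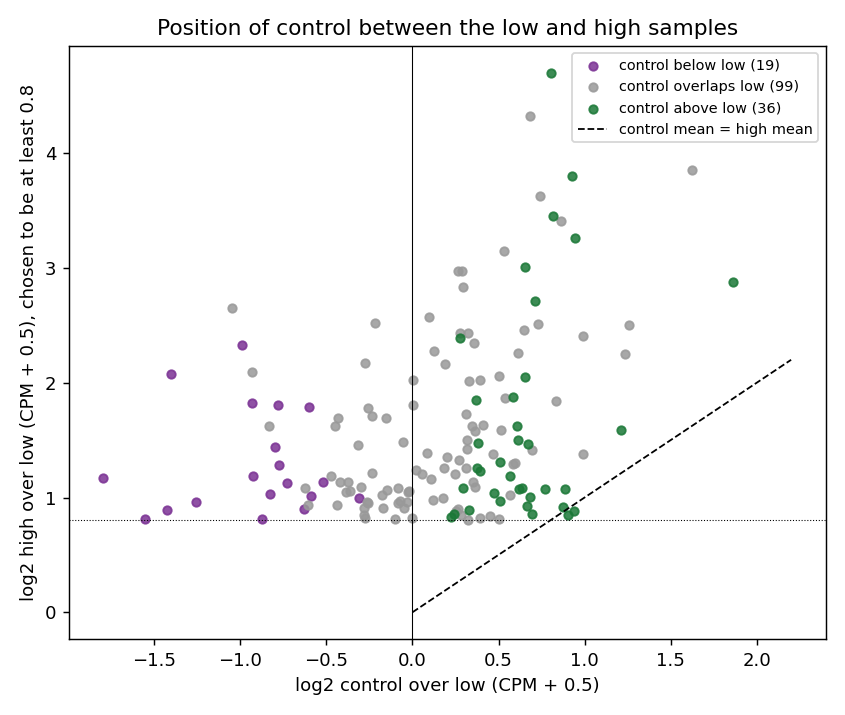
For each of the 154 genes, the log2 of control over low (x axis) against the log2 of high over low (y axis), both with 0.5 CPM added; colours give the position of control and the dashed line marks equal control and high means. The genes above a log2 ratio of 2 lie mainly to the right of 0, where control exceeds low, and 2 genes lie at or below the dashed line.

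H2O2 was then compared with control over all genes, on the 6 samples of these groups, with edgeR's quasi-likelihood test and a Benjamini-Hochberg adjusted p under 0.05. Because the H2O2 samples were among those required to be low, this test is not independent of the choice for the 154 genes. Of 153 genes tested, 7 were higher after H2O2 (4.58%, against 2.97% of all genes) and 13 lower (8.5%, against 4.22%). DESeq2 gave 10 higher and 21 lower (712 and 1064 over all genes). A replicate block in edgeR gave 8 and 23 (505 and 974), and 1 edgeR fit of all 15 samples 13 and 18 (809 and 980). With 1 sample left out, 3 to 8 were higher and 4 to 10 lower, the fewest higher without control replicate 3 and the fewest lower without control replicate 2 or H2O2 replicate 3, and the counts over all genes ranged from 145 to 497 and from 231 to 677 (465 and 660 with all 6 samples). Without control replicate 1 the 154 genes had 7 lower, against 677 of 15997 over all genes. At an unadjusted p under 0.05 there were 24 higher and 38 lower genes (40.5%, against 22.4% of all genes). The median log2 fold change was -0.23, against 0.01 over all genes. When genes were chosen by the same thresholds without the H2O2 samples, with MitoCoat-mRNA alone as the low group, 182 genes passed, of which 144 were among the 154. Of 180 of these tested against control, 4 (2.22%, against 2.97% of all genes) were higher after H2O2 and 14 (7.78%, against 4.22%) lower. Their median log2 fold change was -0.21, against 0.01 over all genes. Same-numbered MitoCoat-mRNA and H2O2 samples deviated together in part, so this choice was not fully free of the H2O2 samples. The labels do not say that the samples of a group came from separate cultures, so the p-values measure the spread between these samples.

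Among the 13 genes that fell with H2O2, the 6 high samples lay above control in 6 and overlapped control in 7, and their mean was 0.952 to 5.32 times the control mean (median 1.37). Of the 13275 genes, 18.5% had all 6 high samples above control, and a level at or above control is favoured here by the choice of high samples that were high and H2O2 samples that were low. The deepest fall was on chromosome 11 from 37891156 to 37914983. Its level was 6.28, 4.43 and 4.45 CPM in control and 1.02, 1.08 and 0.290 CPM after H2O2, without overlap, with a log2 fold change of -2.64 ± 0.43 (SE) and an edgeR adjusted p of 0.010. With unmodified mitochondria it was 14.8, 12.7 and 11.5 CPM, above control, and with MitoCoat 8.71, 10.4 and 6.17 CPM, of which the last lay below the highest control sample. A gene on chromosome 1 from 101517714 to 101540802 had 17.7, 22.3 and 20.8 CPM in control and 9.15, 8.43 and 8.17 CPM after H2O2. It had 29.7, 30.3 and 25.9 CPM with unmodified mitochondria and 25.2, 25.5 and 22.8 CPM with MitoCoat, so that its 6 high samples lay just above control, at 1.31 times the control mean. Its log2 fold change with H2O2 was -1.22 ± 0.13 (SE), with an edgeR adjusted p of 0.0020. These genes and 2 further ones (chromosome 6 from 45683234 to 45694822 and chromosome 7 from 2691369 to 2707741) kept their call in all 6 fits with 1 sample removed, and the other 9 did not.

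In the 7 genes that rose with H2O2 control lay below all low samples, so the 6 high samples had to lie above it, and their mean was 3.35 to 20.8 times the control mean (median 5.54). A gene on chromosome 8 from 130416355 to 130421871 had 0.509, 0.387 and 0.385 CPM in control, 2.24, 2.16 and 2.97 CPM after H2O2 and 2.91, 1.80 and 4.23 CPM with MitoCoat-mRNA. It had 6.71, 7.25 and 6.41 CPM with unmodified mitochondria and 6.19, 6.58 and 7.24 CPM with MitoCoat, and the 3 levels (control, H2O2 with MitoCoat-mRNA, mitochondria) did not overlap. Its log2 fold change with H2O2 was 2.54 ± 0.30 (SE), with an edgeR adjusted p of 0.0029. A gene on chromosome 9 from 94569286 to 94601852 showed the same 3 steps, with 5.70, 4.48 and 5.58 CPM in control, 15.6, 15.1 and 16.4 CPM after H2O2, 24.0 to 31.5 CPM over the 6 high samples, a log2 fold change of 1.60 ± 0.14 (SE) and an edgeR adjusted p of 0.0013. These genes and ENSRNOG00000014117 kept their call in all 6 fits with 1 sample removed. The other 4 were called in 2 to 5 of them, and the largest change among these, on chromosome 2 from 209962848 to 209973205, rested on 6, 6 and 2 counts in control.

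Whether the coating made a difference was tested within the high samples. The choice had required all samples of both forms to lie above the low samples. A gene raised by only 1 form could therefore not be among the 154, which limits the differences that can be found in them. No gene of the 154 differed between MitoCoat and unmodified mitochondria at an edgeR adjusted p under 0.05 (smallest 0.889), and none of the 15731 genes tested did (0%). In a fit blocked on replicate number, since these samples were taken as paired, 0 of the 154 genes and 5 of the 15731 (0.0318%, all higher with MitoCoat) passed. At an unadjusted p under 0.05, 28 of the 154 genes (18.2%) differed, against 4.95% of all genes, 26 of them lower with MitoCoat. With the block these were 55 of the 154 genes and 1402 of the 15731. DESeq2 called 2 genes higher and 1 lower with MitoCoat among 22506, and the lower one, on chromosome 3 from 176731769 to 176744377, was among the 154. It had 40.4, 41.6 and 43.2 CPM with unmodified mitochondria and 28.7, 30.2 and 29.0 CPM with MitoCoat. The groups did not overlap. Without the block, the edgeR log2 fold change of this gene was -0.52 (95% interval from -0.71 to -0.32, adjusted p = 0.889).

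The level with MitoCoat was the lower one in 109 of the 154 genes, with a median log2 fold change of -0.17, against -0.0018 over all genes. Without replicate 3 of unmodified mitochondria the median was -0.09, so this sample moved the median by over 1.5 times. By log2 ratio, a measure that includes this sample, the level was lower with MitoCoat in 36 of 39 genes at 2 or more (30 without replicate 3), in 55 of 77 from 1 to 2 (47) and in 18 of 38 under 1 (17). Of the 19 genes in which control lay below low, 14 were higher with MitoCoat (median 0.15), and 14 also without replicate 3 (median 0.09). No difference between these groups of genes was tested. ENSRNOG00000014117 was among the 14, at 1450 ± 66.8 CPM (SD, n = 3) with unmodified mitochondria and 1814 ± 107 CPM with MitoCoat, a log2 fold change of 0.32 that did not pass (edgeR adjusted p = 0.889). In the fit without the block, the 95% interval of the fold change lay within 2-fold in either direction for 130 of the 154 genes. For these a difference of that size was outside the interval.

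MitoCoat-mRNA was compared with H2O2 within the low samples. Both groups had been required to lie below all high samples. A gene that MitoCoat-mRNA raised to the level of the high samples could therefore not be among the 154. Of 152 genes tested with edgeR none passed (0% of 15506 genes did), DESeq2 called 0, and 4 (2.63%) had an unadjusted p under 0.05, against 2.99% of all genes. The mean with MitoCoat-mRNA exceeded that of H2O2 in 72 of the 154 genes, and the median log2 fold change was -0.03. In the fit without the block, the 95% interval lay within 2-fold for 101 of the 152, and for the rest a 2-fold difference was not outside it.

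**Figure D4:**
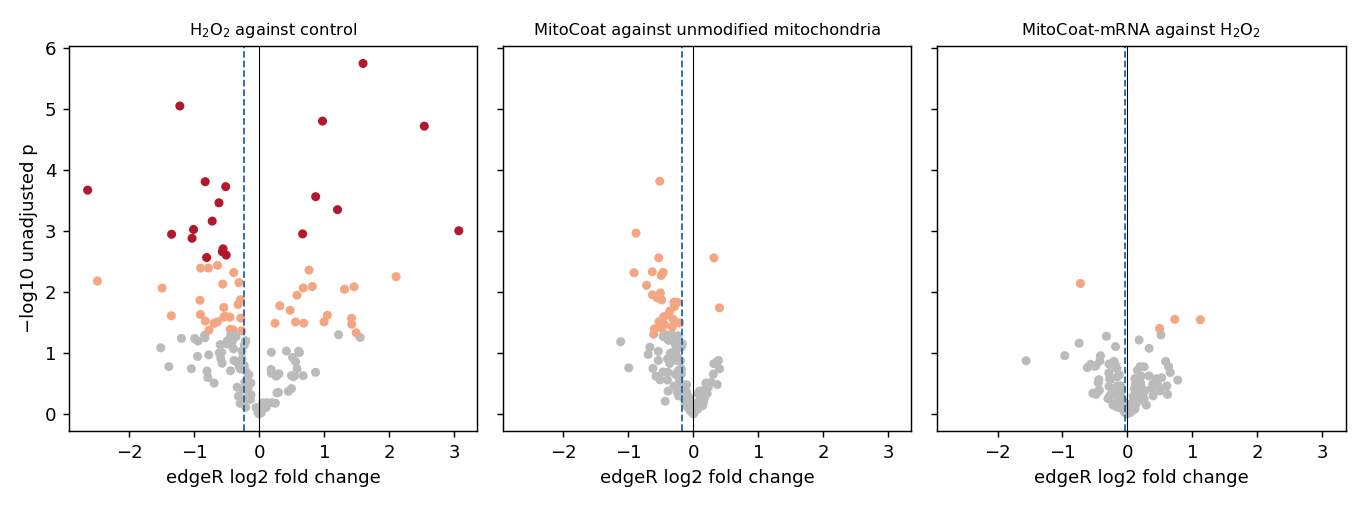
edgeR log2 fold change (x axis) against -log10 of the unadjusted p (y axis) for the 154 genes in the 3 comparisons, with 153, 154 and 152 genes tested; dark red points have an adjusted p under 0.05, light red points an unadjusted p under 0.05, and the dashed line is the median. Called genes lie on both sides in H2O2 against control, none is called in the other comparisons, and 26 of the 28 light points of MitoCoat against unmodified mitochondria lie left of 0.

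The choice was repeated on part of the samples and the chosen genes were compared in the others. These genes partly differ from the 154. With MitoCoat against MitoCoat-mRNA alone, 206 genes passed the same thresholds, 141 of them among the 154. In the other samples, unmodified mitochondria against H2O2, 130 of these 206 genes (63.1%) were higher at an edgeR adjusted p under 0.05, against 1.86% of all genes, 0 were lower and 194 had a positive log2 fold change (median 1.22). With unmodified mitochondria against H2O2 alone, 209 genes passed, 144 of them among the 154. In MitoCoat against MitoCoat-mRNA, 126 of these (60.3%) were higher, against 1.57% of all genes, 0 were lower and 207 were positive (median 1.13). Same-numbered samples of these groups deviated together in part, so the separate samples were not fully independent. These counts are no test of the 154 genes.

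The samples of each group differed among themselves, with mitochondria and without. The highest of the 6 was replicate 3 of unmodified mitochondria in 68 of the 154 genes, and the lowest was a MitoCoat sample in 106. Within a group the highest sample was a median of 1.38 times the lowest, with unmodified mitochondria as with MitoCoat, and of 1.42 times in control and after H2O2. The ratio passed 2 in 39 genes in control, in 33 after H2O2 and in 28 with MitoCoat-mRNA. It passed 2 in 15 genes with unmodified mitochondria, and in each of the 15 the highest sample was replicate 3. It passed 2 in 14 genes with MitoCoat, with replicate 3 the highest in 8. In these 6 samples the summed level of 55 genes that had no count in any control or H2O2 sample, none of which is among the 154, moved differently, at 26.1, 24.3 and 6.99 CPM with unmodified mitochondria and 87.5, 63.9 and 16.3 CPM with MitoCoat, lowest in replicate 3 of each group. The relation of these genes to the spread of the 154 was not tested.

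A region on chromosome 14 from 18743685 to 18862407 held 3 of the 154 genes, which were the only genes among the 13275 inside it. Their summed level was 137, 98.3 and 54.1 CPM in control, 59.6, 67.1 and 36.9 CPM after H2O2, and 65.7, 38.6 and 32.2 CPM with MitoCoat-mRNA. It was 219, 188 and 556 CPM with unmodified mitochondria and 207, 175 and 338 CPM with MitoCoat. Replicate 3 was the highest sample in both treated groups and the lowest in control and after H2O2, and control overlapped the H2O2 samples. The 3 genes differed in the position of control, which lay below the low samples in 1 and overlapped them in the other two.

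A region on chromosome 1 from 252894663 to 252946170 held 3 of the 154 genes among 4 of the 13275. Its summed level was 5.16, 3.73 and 9.15 CPM in control, 4.05, 3.68 and 2.47 CPM after H2O2, 15.4, 25.7 and 38.9 CPM with unmodified mitochondria and 13.7, 25.01 and 26.9 CPM with MitoCoat. The lowest treated sample was replicate 1 in both groups. The most uneven of all 154 genes lay here, from 252944103 to 252946170, with 1.14, 6.48 and 18.4 CPM with unmodified mitochondria and 1.21, 5.77 and 12.6 CPM with MitoCoat, against 0.0493 to 0.453 CPM in the low samples. Its control samples had 0.254, 0.435 and 1.97 CPM, so that the highest control sample exceeded the lowest treated ones.

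The next region, on chromosome 12 from 41200718 to 41307352, held ENSRNOG00000033220 and a gene from 41200718 to 41211909. That neighbour had 1.78, 1.21 and 0.855 CPM in control, 0.396, 0.637 and 0.290 CPM after H2O2, 11.7, 14.8 and 14.0 CPM with unmodified mitochondria and 8.45, 14.3 and 12.3 CPM with MitoCoat. In both genes control lay between the low and high samples, and in both replicate 1 was the lowest MitoCoat sample. A further pair on chromosome 12, from 47444104 to 47482961, also had control above low in both genes, whereas both genes of a pair on chromosome 11 from 38035450 to 38103290 had control overlapping low.

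Some of the 154 genes lay close together along the genome. With gaps of at most 100000 bases, 38 of the 154 genes (24.7%) lay in 18 groups, 2 of them of 3 genes and 16 of 2. Of the 486 genes that were higher without overlap but under the ratio threshold, 93 (19.1%) lay in such groups. Of the 302 genes among the 13275 that lay directly beside one of the 154, 37 (12.3%) were themselves among the 154, against 0.902% of the genes that did not. Of the 265 other neighbours, 28 (10.6%) were higher without overlap, against 3.56% of the remaining genes. These shares are descriptions and were not tested, and the 154 genes are not independent of their neighbours. By chromosome, 21 genes lay on chromosome 1 (13.6%, against 12.4% of the 13275 genes), 20 on chromosome 10 (13.0%, against 8.43%), 16 on chromosome 2 (10.4%, against 6.45%) and 8 on chromosome 11 (5.19%, against 2.51%). Chromosome 5 held 5 (3.25%, against 6.73%), the X chromosome 1 (0.649%, against 3.19%) and chromosome 17 none (0%, against 2.85%).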

How the data were processed

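Per the labels and the paper, trimming was done with Trimmomatic 0.36 and alignment to Rnor6.0 with STAR 2.5.2b, and uniquely mapped reads on exons were counted with featureCounts of Subread 1.5.2. The deposited values are raw counts per gene, 1 file per sample, without normalization. A further deposited file, identical to that of 1 sample, was not used.

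The 154 genes, the comparisons and the thresholds were chosen with earlier results of these data known. CPM used total counts. Comparisons used edgeR 4.0.16 in R 4.3.3 (filterByExpr, TMM, quasi-likelihood F test, 6 samples each, Benjamini-Hochberg adjustment over all genes tested, two-sided). Confidence intervals are at 95%. Alternatives were DESeq2 1.42.0, RLE size factors, a filter of 1 count in total, 1 fit of all 15 samples, a replicate block, each sample left out and, for the choice of genes, TMM-normalized CPM and other thresholds. The choice of genes on part of the samples and the grouping by position were added with the data in view.

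Same-numbered samples were taken as paired where all 3 correlations of their deviations from the group means over 13298 genes exceeded 0.1. They were 0.305 to 0.457 for MitoCoat and unmodified mitochondria and 0.184 to 0.647 for MitoCoat-mRNA and H2O2, but 0.0427 to 0.596 for H2O2 and control. Replicates varied 11.5 to 65.7 times more than counting error, so none was a copy. The edgeR test was also run on simulated counts drawn independently for each sample, which lack the correlation between same-numbered samples. Its outcome is not given here.

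Genes to describe were the 15 of largest ratio, the 10 of highest level, the 5 most raised and lowered by H2O2, any called in the other comparisons and those at the threshold, with at most 2 identifiers printed. Of those, the ones given in full, and the regions, were picked after their values were seen. Gene lists, cell type markers and promoter motifs were not analysed here, since 0 of 32552 identifiers matched. Figures used matplotlib 3.10.9.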

Additional observations from a re-analysis of the deposited data

How the results depend on the processing

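The number of genes chosen stayed within 1.5 times of 154 in every setting, from 115 with a mean of at least 5 CPM to 209 on unmodified mitochondria and H2O2 alone, and from 153 to 169 with 1 sample left out. TMM-normalized CPM chose 142, all among the 154. With 1 control sample left out, control lay below the low samples in 21 to 29 genes (29 without control replicate 1), above in 43 to 56 (56 without control replicate 3) and overlapped in 77 to 87, since fewer samples overlap less.

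H2O2 against control moved most, and the counts over all genes (465 higher, 660 lower) moved too. Higher genes numbered 13 in the fit of all 15 samples (809 over all genes), 4 among genes chosen without the H2O2 samples, and 3 to 8 with 1 sample left out, with 4 without control replicate 2 (145 over all genes) and 3 without control replicate 3 (195). Lower genes numbered 21 with DESeq2 (1064 over all genes) and 4 to 10 with 1 sample left out (231 to 677), with 7 without control replicate 1 or H2O2 replicate 2, 6 without control replicate 3 and 4 without control replicate 2 or H2O2 replicate 3. With the replicate block 23 were lower (6.22% of all genes) and 8 higher (3.23%), but not all pairs of these groups correlated, and the numbers were not taken as pairs. The cause of these shifts was not tested. ENSRNOG00000033220 passed in H2O2 against control in the fit of all 15 samples alone (log2 fold change -0.92, edgeR adjusted p = 0.036; 0.10 to 0.35 otherwise).

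DESeq2 called 1 gene lower in MitoCoat against unmodified mitochondria. All other settings, the replicate block included, called 0 of the 154 genes in this comparison and in MitoCoat-mRNA against H2O2. With 1 sample left out of a group, its spread was pooled with that of the other. Genes under 1 CPM in the low samples limit what can be detected.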
